A study of Mus musculus with 6 samples.

Results

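Microvilli are the finger-like membrane folds that cover the apical surface of the absorptive cells of the intestine, and 10 genes that build their scaffold were followed here: Pdzk1, Slc9a3r1, Vil1, Ezr, Espn, Myo1a, Cdhr2, Cdhr5, Ush1c and Eps8. They were taken by name from the deposited coverage values, and all 10 were found among the 21950 genes listed for both genotypes, each with 1 transcript entry. The tissue was ileum, the far end of the small intestine, of C57BL/6 mice aged 24 weeks, 3 of them wild type and 3 TLR4ΔIEC, which lack Toll-like receptor 4 (Tlr4), the sensor of bacterial lipopolysaccharide, in intestinal epithelial cells. The agent that drives the deletion is not given in the sources used here. RNA was depleted of ribosomal RNA and sequenced as Ion Torrent whole-transcriptome libraries, and 1 column of average coverage was deposited for the pooled mice of each genotype. Every value below therefore belongs to a pool, there are no replicates, and neither a spread between mice nor a test can be given. The genotypes were sequenced as separate pools, so genotype and sequencing pool cannot be told apart.

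A microvillus holds a core of parallel actin filaments, which bundling proteins tie together and which linker proteins attach to the surrounding membrane. PDZ proteins, named for a domain that grips the tail of other proteins, sit beneath that membrane and hold transporters and channels in place. Protocadherins at the microvillus tips join neighbouring microvilli, and an adhesion complex inside the tip anchors them to the actin core. In the ileum these structures carry the enzymes and transporters of late nutrient, bile acid and vitamin uptake.

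Coverage, the mean number of reads over each base of a transcript, is a level per length and so can be compared between genes. In wild type ileum the order of the members by coverage ran from Vil1 at 402, through Slc9a3r1 at 256, Cdhr5 at 225, Myo1a at 198, Ezr at 149, Cdhr2 at 120, Pdzk1 at 112 and Espn at 76.8, to Eps8 at 29.3 and Ush1c at 27.0. The bundling protein villin was thus the most abundant scaffold transcript, while the tip proteins Eps8 and Ush1c stood far below it. In TLR4ΔIEC ileum the order ran from Vil1 at 418, through Myo1a at 185, Cdhr5 at 153.4, Slc9a3r1 at 153.1, Ezr at 115, Cdhr2 at 88.0, Espn at 45.0, Eps8 at 28.5 and Pdzk1 at 26.3, to Ush1c at 24.6. Vil1 and Ush1c were first and last in both genotypes, and Slc9a3r1 went from the second place to the fourth, nearly level with Cdhr5. Pdzk1 went from the seventh place to the ninth, close to the level of Ush1c. With 1 pool for each genotype it cannot be said which neighbours in these orders differ beyond the spread between mice.

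The deposited coverage is not scaled to library size, so both columns were brought to 1 scale by the median ratio over all genes and to a mean total of 1000000 units, with a coverage of 0.682 making up 1 unit in wild type and one of 0.715 in TLR4ΔIEC. Differences are given as log2 ratios, TLR4ΔIEC over wild type, of units plus 1. All 10 members were among the 8891 genes that reached a mean of 5 units. All 10 ratios lay below 0, although that of Vil1 turned positive under 4 of the other scalings (0.06 to 0.12), and 47.4% of the 8891 genes lay below 0 as well. The median ratio of the members was -0.48, against 0.03 for all 8891 genes, and it was -0.45 without Pdzk1. Pdzk1 alone was at least 2-fold lower, as were 2.79% of all genes, and 0 members were at least 2-fold higher, against 1.29% of all genes. Of all genes that differed by 2-fold, 31.7% were higher in TLR4ΔIEC, a share of 44.9% with scaling to the sum of all but the 50 highest genes and of 42.1% with scaling to epithelial markers. Together the members summed to 2338 units in wild type against 1728 in TLR4ΔIEC. Whole tissue was sequenced, so fewer cells of a type and less RNA per cell cannot be told apart.

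**Figure D1:**
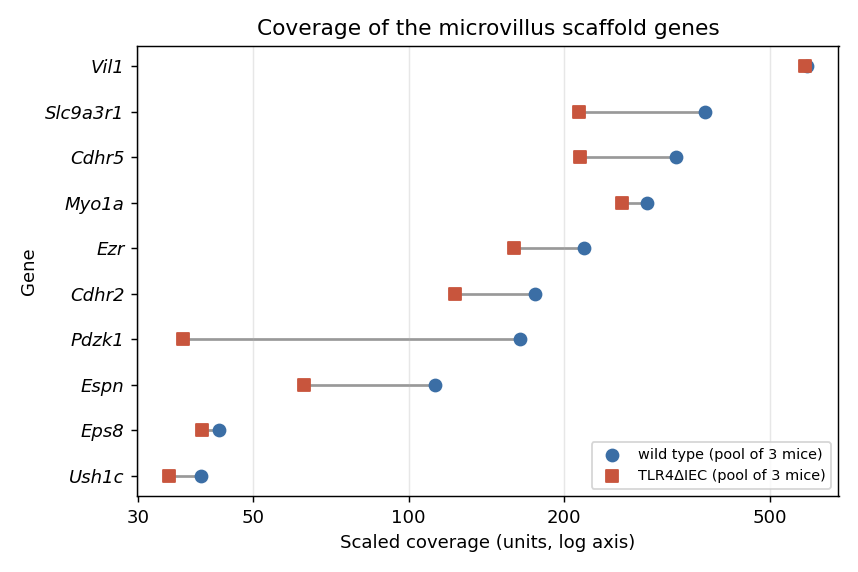
Scaled coverage of the 10 microvillus scaffold genes (horizontal log axis, units) in the wild type pool (circles) and the TLR4ΔIEC pool (squares), each of 3 mice, with a line joining the points of a gene. The longest line is that of Pdzk1, from 164 to 36.7 units, and the points of Vil1 nearly coincide at 589 and 584 units.

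Pdzk1 (NHERF3), a PDZ adaptor that holds transporters and receptors at the apical membrane, stood apart from the other members. It measured 164 units in wild type against 36.7 in TLR4ΔIEC, a 4.48-fold lower level and a log2 ratio of -2.13. Of the 8891 genes, 14 (0.157%) had a lower ratio. In its rank by level among those genes it went from place 611 in wild type to place 2196 in TLR4ΔIEC. The gene lies on chromosome 3 (96829284 to 96870926, plus strand, mm10) and has 13 merged exons in the annotation. Part of its annotated exon sequence, 1333 of 3556 bases, is shared with Gpr89 on the opposite strand. It also shares 68 bases with the lymphocyte gene Cd160 and 81 with the antisense RNA 4930442L01Rik. The 3556 bases join all annotated transcripts, more than the 2417 bases behind the TLR4ΔIEC average. How much of the overlap was averaged is therefore not known. The coverage of Gpr89 was 14.2 (wild type) and 15.0 (TLR4ΔIEC), and that of Cd160 was 2.27 and 2.64. Gpr89 and Cd160 were thus below Pdzk1 in each pool and differed little between the pools, with log2 ratios of 0.01 and 0.12. Whether counting used strand is not given in the sources used here, so the value of Pdzk1 can hold reads of these genes.

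The length over which the coverage of Pdzk1 was averaged can be read back from its decimals, since 99.99% of the values are a whole number of bases divided by a whole length of at most 30000 bases, within 1e-11 coverage for the members. It was 2417 bases in TLR4ΔIEC, and in wild type it was 821 bases or a multiple of that number, of which 2463 is the nearest to 2417. Over 2463 and 2417 bases the averages rest on 276261 bases of reads in wild type and 63456 in TLR4ΔIEC. With a wild type length of 821 or 1642 bases the wild type sum would be 92087 or 184174 bases. Which of these lengths was used is not known. The averages of Espn and Ush1c also rest on unlike lengths, while those of the other 7 members can rest on the same length in both pools. For Slc9a3r1 (961 and 1922 bases), Vil1 (1039 and 3117) and Ezr (3070 and 1535) the longer length read back is a multiple of the shorter. For these genes the same length is possible but not shown, and the longer was taken for both pools. Among these 7 the reads behind an average ranged from 146852 and 142609 bases for Eps8 to 1252071 and 1303123 bases for Vil1, in wild type and TLR4ΔIEC. The read length is not given, so these sums cannot be turned into read numbers or counting intervals.

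A ratio of 2 genes within 1 pool does not depend on the scaling between pools. There was 0.279 as much Pdzk1 as Vil1 coverage in wild type and 0.0628 as much in TLR4ΔIEC, a ratio 4.45-fold apart. Against Slc9a3r1, the scaffold closest to it in function, Pdzk1 stood at 0.438 in wild type and 0.172 in TLR4ΔIEC, 2.55-fold apart. Over the other 9 members the wild type ratio was between 2.50-fold (Espn) and 4.45-fold (Vil1) the TLR4ΔIEC ratio, with a median of 3.28-fold. Over 10 markers of epithelium it was between 1.99-fold and 6.05-fold, with a median of 4.25-fold. The lowest of these folds was against Fabp2, a fatty acid binding protein that was itself lower in TLR4ΔIEC, and the highest was against the keratin Krt19. The size of the Pdzk1 difference thus depended on the gene it was set against. Its direction was the same over these 19 genes because all of them had a higher log2 ratio than Pdzk1. All these folds use the same Pdzk1 values, so the shared direction is not repeated support. Of the summed coverage of the 10 members, Pdzk1 made up 7.03% in wild type and 2.12% in TLR4ΔIEC, whereas Vil1 made up 25.2% and 33.8%.

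**Figure D2:**
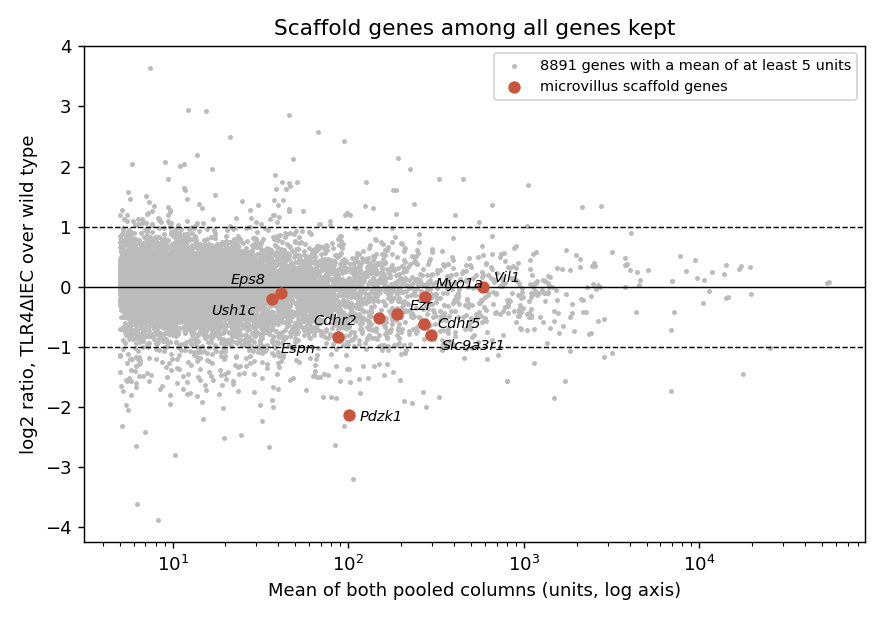
Each grey point is 1 of 8891 genes, placed by its mean over both pools (horizontal log axis, units) and its log2 ratio, TLR4ΔIEC over wild type (vertical axis), with dashed lines at 2-fold. The red points are the microvillus scaffold genes, of which Pdzk1 at -2.13 lies below the 2-fold line and the other 9 lie between -0.83 and -0.01.

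The other PDZ scaffold and its membrane linker were lower to a smaller degree. Slc9a3r1 (NHERF1, also called EBP50), which joins the tails of apical membrane proteins to ezrin, measured 375 units in wild type against 214 in TLR4ΔIEC, 1.75-fold lower with a log2 ratio of -0.81. Ezr, which encodes ezrin, the protein that ties the membrane to actin filaments, measured 219 and 160 units, a ratio of -0.45. Slc9a3r1 (chromosome 11, 115163341 to 115181181, plus strand) and Ezr (chromosome 17, 6738041 to 6782784, minus strand) did not differ to the same extent. There was 1.72 times as much Slc9a3r1 as Ezr coverage in wild type and 1.34 times as much in TLR4ΔIEC. Of all genes, 4.87% had a lower ratio than Slc9a3r1 and 15.2% a lower ratio than Ezr. The exons of Ezr share 4 bases with Sytl3 on the opposite strand, whose coverage was 5.47 in wild type and 3.23 in TLR4ΔIEC.

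The bundling proteins of the actin core differed among themselves. Vil1 (chromosome 1, 74409376 to 74435559, plus strand), which encodes villin, a protein that bundles actin and can also sever it, measured 589 units in wild type against 584 in TLR4ΔIEC, a log2 ratio of -0.01. Its exons share 49 bases with Usp37 on the opposite strand, covered at 1.81 and 1.93. Espn (chromosome 4, 152120331 to 152152371, minus strand), which encodes the bundling protein espin, measured 113 and 62.9 units, 1.79-fold lower with a ratio of -0.83. Espn was thus the member with the lowest ratio after Pdzk1, nearly level with Slc9a3r1 at -0.81. A pseudocount of 5 reversed their order, with Espn at -0.79 and Slc9a3r1 at -0.80. The ratio of Espn rests on unlike lengths, and 4.63% of all genes lay below it. Pls1, the third bundling protein of intestinal microvilli and not a member, was at 341 and 301 units (-0.18) and was named after its value was seen. There was 0.330 as much Espn as Pls1 coverage in wild type and 0.209 as much in TLR4ΔIEC. Eps8 (chromosome 6, 137477245 to 137654876, minus strand), which caps and bundles actin at the microvillus tip, measured 43.0 and 39.8 units, a ratio of -0.11. Myo1a (chromosome 10, 127705170 to 127720940, plus strand), the motor that tethers the core to the membrane along its length, measured 290 and 259 units, a ratio of -0.16. For Vil1, Myo1a and Eps8, between 32.3% and 46.5% of all genes had a lower ratio, which places them near the middle.

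The protocadherins of the tip links were both lower in TLR4ΔIEC. Cdhr2 (chromosome 13, 54701461 to 54736662, plus strand) measured 176 units in wild type against 123 in TLR4ΔIEC, a log2 ratio of -0.51. Cdhr5 (chromosome 7, 141269083 to 141276786, minus strand), its partner across the gap between microvilli, measured 329 and 214 units, 1.54-fold lower with a ratio of -0.62. Their balance was nearly kept, with 1.87 times as much Cdhr5 as Cdhr2 coverage in wild type and 1.74 times as much in TLR4ΔIEC. Ush1c (chromosome 7, 46195350 to 46238503, minus strand), which encodes harmonin, the PDZ protein that binds the protocadherin tails, measured 39.6 and 34.4 units, a ratio of -0.20 that rests on unlike lengths, and 120 of its exon bases overlap the unnamed model Gm9860. The other proteins of this adhesion complex are not members and were named after their values were seen. The motor Myo7b was at 52.2 and 48.1 units, the scaffold Anks4b at 114.2 and 114.1 units, and the calmodulin-like subunit Calml4 at 223 and 221 units.

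The bases before the start of transcription are shown for 4 members that span the range of ratios: Pdzk1 and Slc9a3r1, the PDZ scaffolds, Cdhr5, a tip protocadherin, and Vil1, which was nearly level. They run from base -250 to base -21 relative to the RefSeq start, 230 bases each, from the RefSeq promoter table of GRCm38.p6 (the assembly of mm10), which holds an entry for 9 of the 10 members. Capitals mark matches to 7 motifs of enterocyte and core promoter factors, searched on both strands.
Pdzk1, chr3:96829815-96830044, plus strand: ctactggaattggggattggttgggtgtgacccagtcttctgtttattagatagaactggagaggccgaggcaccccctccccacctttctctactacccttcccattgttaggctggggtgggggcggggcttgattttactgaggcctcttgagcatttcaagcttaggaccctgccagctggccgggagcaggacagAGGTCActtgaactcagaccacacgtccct
Slc9a3r1, chr11:115163091-115163320, plus strand: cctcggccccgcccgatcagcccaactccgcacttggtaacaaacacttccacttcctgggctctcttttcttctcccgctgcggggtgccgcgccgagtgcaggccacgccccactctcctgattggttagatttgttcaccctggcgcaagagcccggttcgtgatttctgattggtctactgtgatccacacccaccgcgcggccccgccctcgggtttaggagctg
Cdhr5, chr7:141276807-141277036, minus strand: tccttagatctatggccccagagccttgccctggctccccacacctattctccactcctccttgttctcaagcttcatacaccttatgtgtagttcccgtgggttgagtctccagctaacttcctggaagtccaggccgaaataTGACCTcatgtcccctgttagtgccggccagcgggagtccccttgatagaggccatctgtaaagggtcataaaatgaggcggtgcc
Vil1, chr1:74409134-74409363, plus strand: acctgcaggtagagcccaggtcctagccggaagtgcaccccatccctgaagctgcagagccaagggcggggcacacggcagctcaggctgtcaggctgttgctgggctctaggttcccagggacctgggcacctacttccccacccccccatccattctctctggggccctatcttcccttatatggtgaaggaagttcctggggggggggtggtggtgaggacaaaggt
The only match in the Pdzk1 stretch is AGGTCA, the hexamer of nuclear receptors such as PPAR and HNF4, whose first base lies at -50. The same hexamer was found at -106 for Cdhr5 and at -203 for Cdhr2, in both on the other strand, and in no other member with an entry. It occurs in 14.0% of the 32851 promoter entries of the same 250 bases. A direct repeat of that hexamer with 1 base between, a motif that contains it, was found in 0.0335% of entries and in no member. The HNF4 core CAAAGTCC (1.20% of entries), the GATA site AGATAA (9.99%) and the TATA box TATAAA (12.4%) were also found in no member. The HNF1 hexamer GTTAAT (6.43%) was found for Cdhr2 at -54, and the CDX site TTTATNG (9.81%) at the third listed start of Espn. Pdzk1 has a second listed start, with no match, and its stretch shown above overlaps exons of the antisense RNA 4930442L01Rik, itself covered at only 0.0290 in wild type and 0.0454 in TLR4ΔIEC. That stretch lies before the RefSeq start used, but inside the Pdzk1 gene as annotated by GENCODE, which starts at 96829284. These matches describe letters only, and no binding was measured.

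Genes of microvillus structure outside the members went both ways, with list medians near 0. Of 18 other core, linker and adhesion genes, 15 reached 5 units, with 5 above 0, 10 below, 0 at least 2-fold apart and a median log2 ratio of -0.12. Tmigd1, an adhesion protein of the brush border, had the lowest ratio among them (521 units in wild type against 271 in TLR4ΔIEC, -0.94). The Eps8 relative Eps8l2 was at -0.54, Baiap2l2, of a family that bends the membrane over actin, at -0.51, and the minus-end motor Myo6 at 0.45. Of 15 other PDZ scaffold and ERM genes, most of them weakly covered, 10 reached 5 units, with 6 above 0, 4 below, 0 at least 2-fold apart and a median of 0.12. The only one that averaged 20 units was Pdzd3 (NHERF4), the closest relative of Pdzk1 in the list, at 30.4 units in wild type against 19.5 in TLR4ΔIEC, a ratio of -0.61. The other ERM protein that reached 5 units, Msn (moesin), named after its value was seen, was at 9.77 and 13.6 units (0.43), opposite in sign to Ezr.

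**Figure D3:**
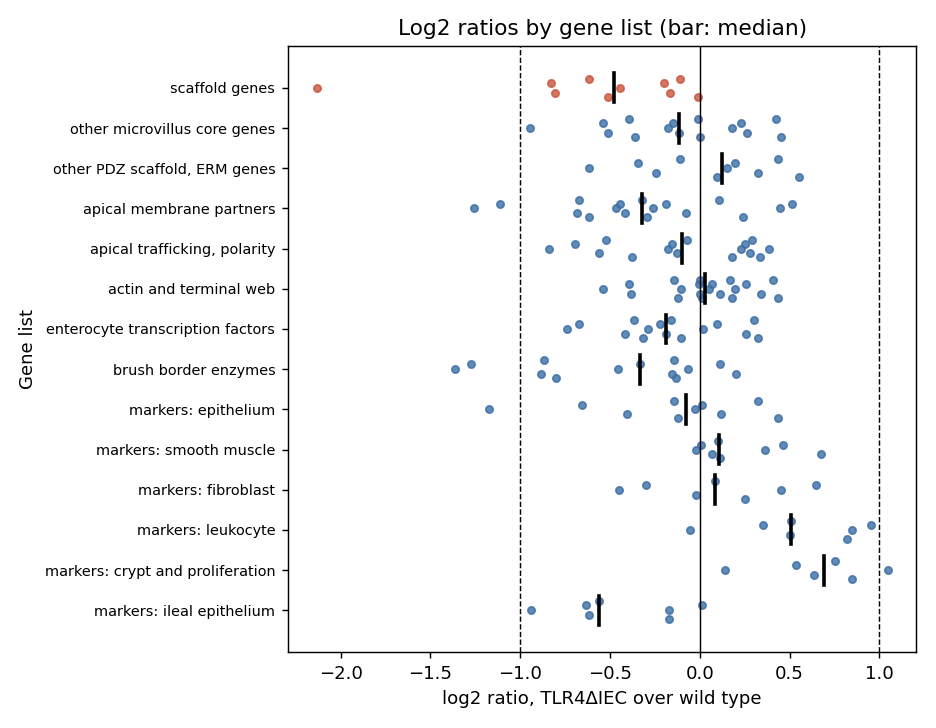
Log2 ratio, TLR4ΔIEC over wild type (horizontal axis), of every gene that averaged 5 units in each gene list (rows), with a black bar at the list's median and dashed lines at 2-fold. The microvillus scaffold genes (red, median -0.48) lie to the left of actin and terminal web genes (0.03), and crypt and leukocyte markers lie to the right (0.69 and 0.51). The medians of ileal epithelium markers (-0.56), brush border enzymes (-0.33) and apical membrane partners (-0.32) also lie to the left of 0.

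Apical membrane proteins listed as known or possible cargo of the PDZ scaffolds, from work in several species, were more often lower than higher. Of 24, 17 reached 5 units, with 13 below 0, 4 above, and 2 lower and 0 higher by 2-fold or more. Their median log2 ratio was -0.32 (-0.23 with no filter). The sodium-phosphate transporter Slc34a2 measured 109 units in wild type against 49.8 in TLR4ΔIEC, a ratio of -1.11. The other gene past 2-fold, the phosphate transporter relative Slc17a4, was named after its value was seen and measured 17.7 and 6.83 units (-1.26). The 4 of these 17 genes above 0, also named after their values were seen, were Cftr (0.51), Gucy2c (0.45), Slc26a3 (0.24) and Slc5a8 (0.11). Other listed genes above 0, among them the sodium-proton exchanger Slc9a3 (0.35), did not reach 5 units. The anion exchanger Slc26a6 was at -0.69 and the amino acid transporter Slc6a19 at -0.67. Brush border enzymes, which sit on the microvillus membrane, had 11 of 13 genes that reached 5 units below 0, 2 at least 2-fold lower and a median of -0.33 (-0.15 with no filter). Intestinal alkaline phosphatase (Alpi) was at 146 and 56.2 units (-1.36), the gamma-glutamyl transferase Ggt1 at 211 and 86.7 units (-1.28), the peptidase Naaladl1 at -0.88 and the protease Mep1a at -0.86.

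Genes that deliver cargo to the apical surface and set cell polarity had 9 of 16 below 0, 0 at least 2-fold apart and a median log2 ratio of -0.10, which was -0.38 with a filter at 20 units and -0.00027 with scaling to the sum of all but the 50 highest genes. The polarity kinase Stk11 was at -0.84, the polarity protein Crb3 at -0.69, the fusion regulator Stxbp2 at -0.56 and the protease inhibitor Spint2 at -0.52. Actin, tropomyosin and terminal web genes had 13 of 20 above 0 and a median of 0.03, with Plec at -0.54, Krt19 at 0.43, Tpm3 at 0.41 and Pfn1 at -0.40. The median of these filament genes was thus close to that of all genes. Enterocyte transcription factors had 10 of 15 below 0, 0 at least 2-fold apart and a median of -0.19. Among them Elf3 was at -0.74, Klf4 at -0.67, Cdx1 at -0.41 and Srf, which drives many actin genes, at -0.37.

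Few genes had a ratio like that of Pdzk1. Among the 3684 genes that averaged 20 units it was seventh from the lowest, and likeness was taken as the distance in log2 ratio over the 2 pools. Below it stood Dio1, a thyroid hormone deiodinase (-2.23), Ada, adenosine deaminase (-2.31), and the cytochrome Cyp2c55 (-2.46). Above it stood Angptl4, an inhibitor of lipoprotein lipase (-2.004), 2010109I03Rik, listed as Ly6m by RefSeq (-2.004), and the microRNA hairpin Mir6972 (-1.96), which lies inside Cfb. A single ratio over 2 pools cannot show that genes vary together.

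Markers of other cells also differed between the pools. The 10 epithelial markers were all well covered in both pools, from a mean of 142 units upward, with 6 below 0 and a median log2 ratio of -0.08, which was 0.03 with quantile normalization or scaling to the sum of all but the 50 highest genes. Their summed level was 12471 units in wild type against 9883 in TLR4ΔIEC. Fabp2 alone measured 3942 units in wild type and 1750 in TLR4ΔIEC (-1.17). Most of the difference between the sums was thus that of 1 gene, and 4 of the 10 markers lay above 0. Cldn7 was at -0.65, Epcam at -0.40 and Krt19 at 0.43. The 7 markers of ileal epithelium were present as well, with 6 below 0, a median of -0.56 and summed levels of 16647 and 14662 units. Fabp6, named after its value was seen, made up most of both sums, at 15350 and 13628 units (-0.17). Amn was at -0.94, Fgf15 at -0.63, Cubn at -0.62 and Slc51a at -0.56. Of 8 crypt and proliferation markers all 6 that reached 5 units were above 0 (median 0.69), and the list summed to 251 units in wild type against 402 in TLR4ΔIEC. Mcm6 was at 1.05, Ccna2 at 0.85, Olfm4 at 0.75 and Smoc2 at 0.54. Leukocyte markers had 6 of 7 above 0 (median 0.51, summed levels of 89.4 and 129 units), with Csf1r at 0.95, Cd3g at 0.85 and Cd79a at -0.06. Smooth muscle markers had 7 of 8 above 0 (median 0.11, 901 and 1056 units), with Mylk at 0.67, Acta2 at 0.46, Actg2 at 0.37 and Des at 0.11. Fibroblast markers had 4 of 7 above 0 (median 0.09, 155 and 199 units), with Dcn at 0.65 and Col6a1 at -0.02. None of these markers was listed at 0 in either pool. The part of these other cells in the ratios of the scaffold genes was not tested. The targeted gene, Tlr4 (chromosome 4, 66827584 to 66930284), was weakly covered, at 2.90 units in wild type against 2.24 in TLR4ΔIEC (-0.27). That value covers the whole transcript in whole tissue and is a weak check of the genotype.

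**Figure D4:**
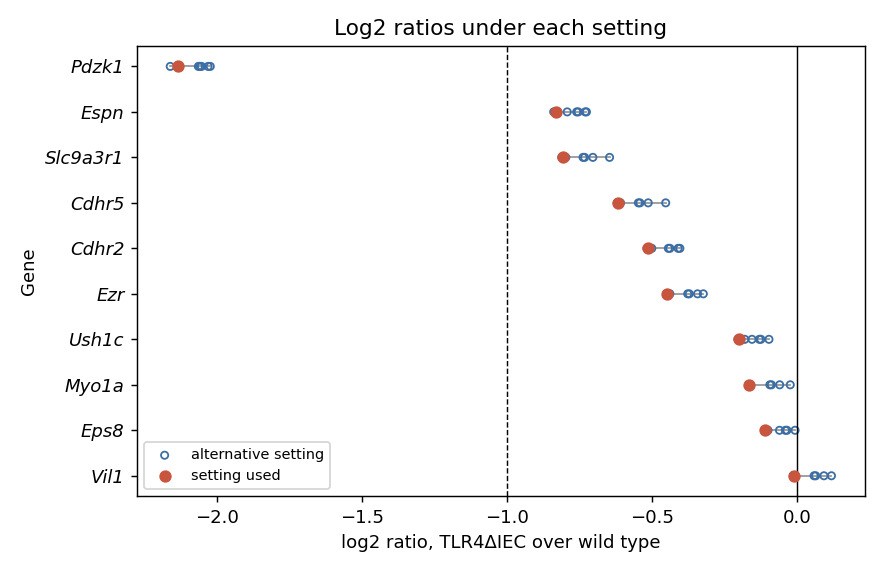
Log2 ratio, TLR4ΔIEC over wild type (horizontal axis), of each scaffold gene under the setting used (filled points) and under each alternative that gave it a value (open points), with a dashed line at 2-fold. Pdzk1 stays between -2.16 and -2.02, with no value under the restriction to the same length, and Vil1 is the only gene whose points cross 0.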

How the data were processed

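Average coverage per RefSeq transcript entry is the deposited unit, per the file headers, with 1 column for all 3 mice of a genotype, per the labels. Per the submitters' processing notes, the tools were TopHat2 2.0.10 and Bowtie2 2.1.0 and the build mm10, with no roles given, and what tool made the coverage is not given in the sources used here. Columns held 22724 (wild type, sum 699800) and 22687 entries (TLR4ΔIEC, sum 698473), of which 22001 were in both. Entries in 1 column only were left out. A symbol with several entries was represented by its highest. Scaling used the median of ratios (factor 1.05), a pseudocount of 1 (which understates ratios of weakly covered genes) and a minimum mean of 5 units. At least 2-fold means a log2 ratio of at least 1 or at most -1.

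The planned comparison was made with no test, since there are no replicates. Members and lists were chosen with earlier results of these data known. Named genes were Tlr4, the members, the 4 largest absolute ratios of each list among genes of at least 20 units, the 3 genes on either side of Pdzk1, and genes overlapping a member; exceptions are marked, and 1 list gene that the rule takes is not reported here. One list gene, Stk26, was matched by RefSeq accession to its older symbol. Alternatives were other scalings, pseudocounts, filters, entries and lengths. Positions are from GENCODE vM21. The steps were tested on simulated data. Python 3.11.15, numpy 2.4.6 and pandas 2.3.3 were used.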

Additional observations from a re-analysis of the deposited data

How the results depend on the processing

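The log2 ratio of Vil1 (-0.01) turned to 0.0600 with scaling to the total, 0.0940 with scaling to the sum of all but the 50 highest genes, 0.120 with quantile normalization and 0.0654 with scaling to the epithelial markers, an alternative chosen after seeing the data. That of Pdzk1 stayed between -2.16 and -2.02. The filters cannot change the ratio of a gene that passes them, and the restriction to the same length gave Pdzk1 no value. Its range therefore reflects scaling and pseudocount and does not test its unlike lengths. Restricting genes to those whose averages can rest on the same length in both pools removed Pdzk1, Espn and Ush1c. Of the 7 members left, 0 were at least 2-fold lower, against 1 of 10. Of all 6307 genes left, 168 were at least 2-fold lower, so 0 of 7 does not set the members apart. The median of the members ranged from -0.48 to -0.36 and stayed below 0 in all alternatives, while the median of all genes moved to 0.12 with scaling to the sum of all but the 50 highest genes. The median of the other microvillus core genes turned to 0.0359 with quantile normalization, and that of the other PDZ scaffold and ERM genes to -0.61 with a filter at 20 units, which leaves only Pdzd3. The epithelial marker median turned to 0.0286 with scaling to the sum of all but the 50 highest genes and to 0.0273 with quantile normalization, and the median of all genes to -0.0348 with the filter at 20 units. Of all genes, 248 were at least 2-fold lower and 115 higher; a pseudocount of 5 gave 146 and 65, no filter 395 and 222, a filter at 1 unit 380 and 206, and one at 20 units 130 and 58.

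No paired analysis was possible because each genotype has 1 pooled column. The alternatives leaving out a mouse do not exist for the same reason. The depth in reads is unknown, and Eps8 and Ush1c had the lowest wild type coverage among the members.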
